A study of Sus scrofa with 31 samples.

Results

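P2RY12, P2RY13 and GPR34 are G protein-coupled receptors of the P2Y12-like family, and they were taken as 3 genes out of the 31907 in the deposited count table, matched by gene identifier (ENSSSCG00000011713, ENSSSCG00000032162 and ENSSSCG00000022309). Their RNA was followed through 31 libraries of 5 groups: microglia of the cerebellum, the frontal cortex and the hippocampus (n = 8 each), alveolar macrophages from lung lavage (n = 3) and whole hippocampal tissue (n = 4). The animals were male commercial cross-bred piglets in the fourth week of life, and 15 pig tags appear in the labels, 9 of them on more than 1 library. Microglia were sorted by flow cytometry as CD11b-high cells with low or absent CD45, and alveolar macrophages as F4/80-positive cells with low or absent CD163. Tissue RNA was extracted with another kit than sorted-cell RNA, so extraction and cell source cannot be told apart in comparisons with tissue. The pigs were the replicates, each group holding 1 library per pig, and which kind of housing a pig was born in is not given in the labels.

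P2RY12 and P2RY13 are receptors for ADP that couple to the inhibitory G protein Gi. P2RY12 is the platelet ADP receptor blocked by clopidogrel, and in the brain it marks homeostatic microglia, whose processes move towards released ATP and ADP through it. GPR34 also couples to Gi but is a receptor for lysophosphatidylserine, a lipid released from damaged membranes.

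In the RefSeq annotation of Sscrofa11.1 the ADP receptors lie side by side on the minus strand of chromosome 13, P2RY13 at 91509441-91513687 and P2RY12 at 91522754-91572195, 9066 bp apart. Both lie inside MED12L, a gene of the opposite strand (91271588-91625867) that also spans the relatives P2RY14 and GPR171. GPR34 (X, 37306490-37313626, plus strand) lies inside CASK, again on the opposite strand (37166973-37535723), beside its relative GPR82. The exons of P2RY12, P2RY13 and GPR34 share 0 bases with the annotated exons of MED12L or CASK. Whether the counting used strand is not given in the sources used here, so reads from introns or unannotated exons of the host genes cannot be told apart from those of the receptors. The windows from 250 bases before to 50 bases after each annotated gene start are printed because all 3 genes had their highest levels in microglia. The transcribed bases are in capitals.
P2RY12 (chr13:91572146-91572445, minus strand): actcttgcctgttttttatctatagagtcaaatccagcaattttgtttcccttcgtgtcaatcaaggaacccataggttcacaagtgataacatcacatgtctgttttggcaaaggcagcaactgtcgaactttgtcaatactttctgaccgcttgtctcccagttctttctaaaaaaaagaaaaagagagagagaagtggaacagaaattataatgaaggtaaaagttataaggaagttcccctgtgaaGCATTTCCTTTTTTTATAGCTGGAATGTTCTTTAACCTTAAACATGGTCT
P2RY13 (chr13:91513638-91513937, minus strand): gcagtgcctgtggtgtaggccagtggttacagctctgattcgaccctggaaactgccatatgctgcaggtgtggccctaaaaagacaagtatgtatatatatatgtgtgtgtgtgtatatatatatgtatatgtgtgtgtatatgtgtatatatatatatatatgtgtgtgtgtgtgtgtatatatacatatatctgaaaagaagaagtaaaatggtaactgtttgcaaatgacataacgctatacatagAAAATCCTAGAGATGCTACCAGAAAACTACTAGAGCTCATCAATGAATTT
GPR34 (chrX:37306240-37306539, plus strand): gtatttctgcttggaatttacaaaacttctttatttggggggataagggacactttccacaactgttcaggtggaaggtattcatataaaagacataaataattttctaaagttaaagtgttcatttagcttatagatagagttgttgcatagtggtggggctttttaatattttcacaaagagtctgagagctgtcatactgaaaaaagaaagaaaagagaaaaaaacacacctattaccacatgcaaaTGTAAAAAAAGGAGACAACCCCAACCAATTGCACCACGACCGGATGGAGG
All 3 windows were rich in A and T, with 36.7%, 35.3% and 35.7% G and C for P2RY12, P2RY13 and GPR34, where the median of 19556 protein-coding windows was 58.7%. None of the 3 held GAGGAA (bound by PU.1, in 25.9% of all windows), TGANTCA (AP-1, 6.1%) or the interferon-stimulated response element (3.6%) on either strand. These letters were absent from these windows, which says nothing about the factors.

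Library depth ran from 18438494 to 43477403 counts, and values are CPM, read counts relative to a common library total, with library sizes scaled by the trimmed mean of M values (TMM). In CPM, 3 counts correspond to 0.069 to 0.163. The summed level of 6 microglial markers (TMEM119, TREM2, CX3CR1, CSF1R, SALL1 and OLFML3) was 3132 to 7266 CPM in the microglial libraries, 173 to 335 CPM in the alveolar macrophages and 193 to 291 CPM in the tissue. CD163, the macrophage scavenger receptor used in the lung gate, stood at 401 ± 149.9 CPM (SD, n = 3) in the alveolar macrophages and MRC1 at 261 ± 69.9 CPM, while MARCO was at 0 in all 31 libraries. The alveolar macrophage libraries also carried T and B cell markers (6 genes, 529.9 to 1018 CPM summed, against 13.5 to 71.6 CPM in microglia and 1.62 to 2.82 CPM in tissue). Of these, CD79B was at 0 in microglia and CD3E at most at 5.1 CPM. Monocyte and granulocyte markers (5 genes) summed to 506 to 1408 CPM in the alveolar macrophages, 42.7 to 87.4 CPM in microglia and 312 to 401 CPM in tissue.

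P2RY12 had the widest range of the 3 receptors. It reached 321 to 451 CPM in cerebellar microglia (median 415), 201 to 983 CPM in frontal cortex microglia (median 685) and 391 to 647 CPM in hippocampal microglia (median 605). The 3 alveolar macrophage libraries held 1.21, 3.22 and 3.7 CPM, from 46 to 151 counts, and the 4 tissue libraries 12.2, 15, 20.9 and 22.2 CPM. Every microglial library was above every tissue library, and every tissue library was above every alveolar macrophage library. The share of all tested genes that separate the groups in this way is not given here, for any of the 3 receptors. The order of the means was frontal cortex, hippocampal and cerebellar microglia (653 ± 276, 548 ± 101 and 393 ± 54.6 CPM, SD, n = 8 each), then tissue (17.6 ± 4.77, n = 4), then alveolar macrophages (2.71 ± 1.32, n = 3).

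P2RY13 was lower in microglia and less far apart between groups. It stood at 47.3 to 82.9 CPM in cerebellar microglia (median 65.3), 52.3 to 106 CPM in frontal cortex microglia (median 79.5) and 64.3 to 117 CPM in hippocampal microglia (median 80.6). The alveolar macrophages gave 6.9, 10.1 and 15.1 CPM and the tissue 6.95, 7.56, 9.44 and 9.51 CPM. Microglia did not overlap with either, whereas the last 2 groups overlapped with each other. In order, the means were 85.4 ± 17 CPM in hippocampal, 79.1 ± 20.9 in frontal cortex and 64.6 ± 11.7 in cerebellar microglia, 10.7 ± 4.14 in alveolar macrophages and 8.36 ± 1.3 in tissue.

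GPR34 was high in microglia and intermediate in alveolar macrophages. Its range was 279 to 359 CPM in cerebellar microglia (median 316), 239 to 617 CPM in frontal cortex microglia (median 418) and 259 to 378 CPM in hippocampal microglia (median 339). The alveolar macrophages gave 34.8, 46.1 and 59.4 CPM and the tissue 14.3, 16.3, 16.4 and 17.8 CPM, with no overlap among microglia, macrophages and tissue. The means followed the order 420.0 ± 149 CPM in frontal cortex, 331 ± 40.9 in hippocampal and 317 ± 32.5 in cerebellar microglia, 46.8 ± 12.3 in alveolar macrophages and 16.2 ± 1.43 in tissue. The mean in alveolar macrophages was above that in tissue for GPR34 and below it for P2RY12.

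**Figure D1:**
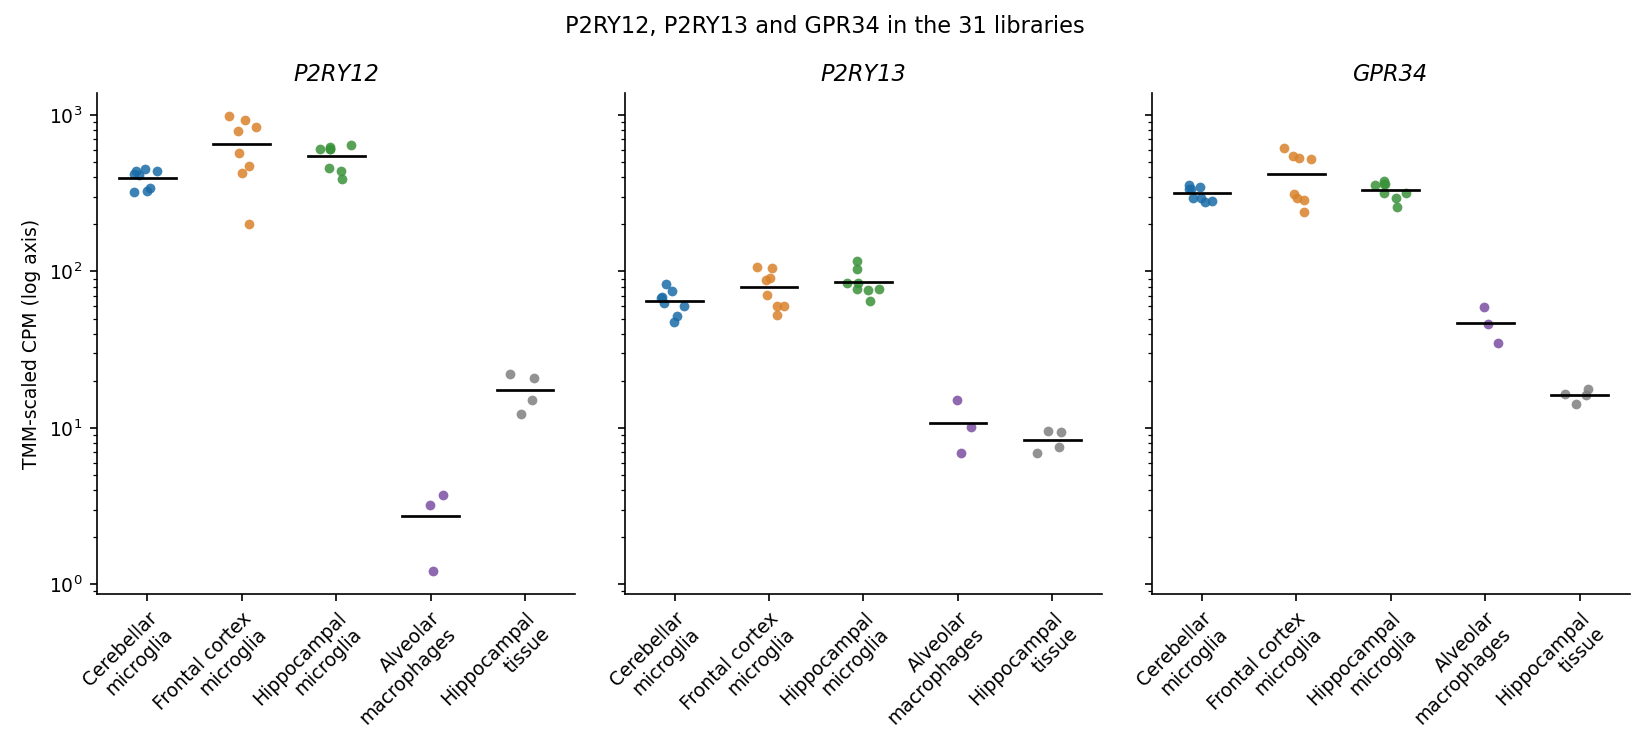
Level of P2RY12, P2RY13 and GPR34 in TMM-scaled CPM (log axis) by group; each point is 1 of 31 libraries and the line is the group mean. All microglial points lie above all alveolar macrophage and tissue points, and P2RY12 falls to 1.21 to 3.7 CPM in the 3 alveolar macrophage libraries.

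Levels of different genes were compared per kilobase of annotated exon (6.67 kb for P2RY12, 3.52 kb for P2RY13 and 2.70 kb for GPR34). On this scale GPR34 was the highest of the 3 receptors in microglia, at 132 ± 36.6 CPM per kb (SD, n = 24), above P2RY12 at 79.8 ± 29.7 and P2RY13 at 21.7 ± 5.24. GPR34 made up 56.9% ± 4.1 of the summed level per kb of the 3 in microglia, 54.5% ± 2.23 in tissue (n = 4) and 83.3% ± 5.02 in alveolar macrophages (n = 3). P2RY12 made up 33.5% ± 4.4, 23.7% ± 4.63 and 2.05% ± 1.25, and P2RY13 9.6% ± 2.09, 21.8% ± 4.22 and 14.6% ± 3.88. The lengths are unions over all RefSeq models, so the order between genes depends on which models the cells use. The counts were made on the Ensembl annotation, whose exon lengths were not used. Without division by length, P2RY12 was above GPR34 in microglia (532 ± 198 against 356 ± 98.9 CPM).

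Against alveolar macrophages, which asks what sets microglia apart from another resident macrophage, all 3 receptors were higher in microglia. P2RY12 differed by a log2 fold change of 7.58 ± 0.49 (SE, 192-fold; adjusted p = 7.5e-14), GPR34 by 2.92 ± 0.25 (7.55-fold; adjusted p = 2.7e-11) and P2RY13 by 2.82 ± 0.25 (7.08-fold; adjusted p = 9.27e-11), with 24 and 3 libraries and edgeR's quasi-likelihood test. Each SE of a fitted fold change was derived from the test, as the log2 fold change divided by the square root of its F statistic. A gene was called here if its adjusted p lay under 0.01 and it differed more than 3-fold. This held for 3 of 3 receptors, where 12.2% of all 11633 tested genes were called higher in microglia and 10.1% higher in alveolar macrophages. The study had put these genes into its own microglial list from the same samples, so the count is not independent evidence of the direction. By size of fold change P2RY12 ranked 235th, GPR34 1240th and P2RY13 1286th of the 6079 genes fitted higher in microglia. In the 2 pigs with both lavage and hippocampal microglia, P2RY12 was 165-fold and 536-fold higher in the microglia, GPR34 10.3-fold and 6.91-fold, and P2RY13 8.31-fold and 11.2-fold. Platelets also carry P2RY12, and 9 platelet markers summed to 5.77 to 15.7 CPM in microglia, 28 to 88.7 CPM in the alveolar macrophages and 4.93 to 8.06 CPM in tissue. The level in the macrophages was mostly that of PPBP (42.5 against 0.179 CPM in microglia), while GP6 (0.153 against 2.84), GP9 (2.75 against 3.99) and TUBB1 (2.34 against 2.96) had lower means there, and GP1BB was at 0 in both. The part of platelet RNA in the levels of P2RY12 was not tested.

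Against whole hippocampus, which asks what microglia hold beyond the other cells of their region, the 3 receptors were again higher in the sorted cells. P2RY12 differed by 4.96 ± 0.37 on the log2 scale (31.2-fold; adjusted p = 1.45e-12), GPR34 by 4.35 ± 0.25 (20.5-fold; adjusted p = 2.12e-15) and P2RY13 by 3.35 ± 0.24 (10.2-fold; adjusted p = 4.63e-13), with 8 and 4 libraries. All 3 were called, here with a fold threshold of 4, where 11.7% of tested genes were called higher in hippocampal microglia and 22.1% higher in tissue. In bulk tissue, fewer microglia and less receptor RNA per microglial cell cannot be told apart. Each of the 4 pigs with both samples showed the direction, with folds of 29.1 to 49.5 for P2RY12, 19.5 to 25.3 for GPR34 and 8.84 to 15.5 for P2RY13.

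Alveolar macrophages were also set against hippocampal tissue, sharing their libraries with the comparisons above. P2RY12 was lower in the macrophages, with a log2 fold change of -2.70 ± 0.40 (adjusted p = 1.08e-06), and was the 1 of 3 receptors called past the 4-fold threshold, where 18.1% of tested genes were called higher in tissue and 11.5% higher in the macrophages. This call was lost with limma-voom (log2 fold change -2.78, adjusted p = 0.0546) and with pig as a block in limma (-2.90, adjusted p = 0.0478), and kept with pig as a block in edgeR (-2.92, adjusted p = 0.000235). GPR34 was 2.89-fold higher in the macrophages (log2 fold change 1.53 ± 0.24, adjusted p = 2.83e-06), under the fold threshold. P2RY13 differed by 0.36 ± 0.25 (adjusted p = 0.205), so its lowest 2 groups were not separated.

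**Figure D2:**
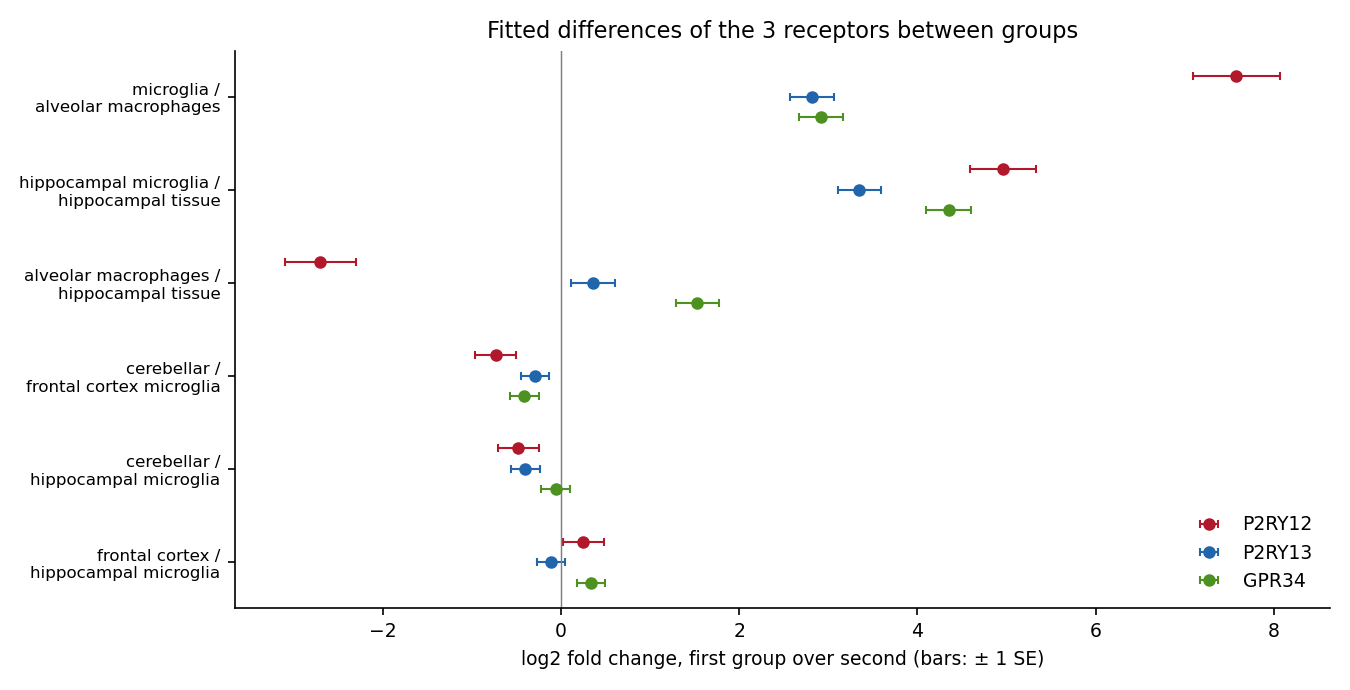
Fitted log2 fold changes of the 3 receptors in 6 comparisons from edgeR. Points are estimates, bars ± 1 SE derived from the F statistic, and a positive value means higher in the first group named. P2RY12 extends from 7.58 (microglia over alveolar macrophages) to -2.70 (alveolar macrophages over tissue), and the regional differences lie between -0.73 and 0.34.

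Among the microglial regions, 0 of 3 receptors were called at an adjusted p under 0.01 by edgeR's F test over the 3 regions, which called 2.03% of tested genes. The adjusted p was 0.0917 for P2RY12, 0.142 for GPR34 and 0.205 for P2RY13. At an unadjusted p under 0.05 there were 2 (P2RY12 and GPR34), and limma-voom and DESeq2 each called 0. The fitted means were lowest in the cerebellum for all 3 genes. Cerebellar microglia differed from frontal cortex microglia by -0.73 ± 0.23 for P2RY12 (adjusted p = 0.0615), -0.41 ± 0.16 for GPR34 (adjusted p = 0.138) and -0.29 ± 0.16 for P2RY13 (adjusted p = 0.34), so 0 of 3 were called, where 0.894% of genes were higher in the cerebellum and 0.971% in the frontal cortex. From hippocampal microglia they differed by -0.48 ± 0.23, -0.06 ± 0.16 and -0.40 ± 0.16 for P2RY12, GPR34 and P2RY13 (adjusted p = 0.246, 0.877 and 0.16), again 0 of 3, beside 0.438% higher in the cerebellum and 0.163% in the hippocampus. Frontal cortex and hippocampal microglia differed by 0.25 ± 0.23 for P2RY12, 0.34 ± 0.16 for GPR34 and -0.11 ± 0.16 for P2RY13 (adjusted p = 0.6, 0.216 and 0.776), with 0 of 3 called beside 0.189% and 0.129% of genes higher in the frontal cortex and the hippocampus. In these 3 comparisons, 2, 2 and 1 of the 3 receptors had an unadjusted p under 0.05, and limma-voom and DESeq2 called 0 in each. In the 4 pigs with cerebellar and hippocampal microglia the cerebellar level was the lower in 4 of 4 for each receptor, at 0.524 to 0.943 of the hippocampal level for P2RY12, 0.587 to 0.821 for P2RY13 and 0.887 to 0.964 for GPR34. In the 6 pigs with cerebellar and frontal cortex microglia the direction was mixed, the cerebellar level being the higher in 2 of 6 for each receptor, with ratios of 0.485 to 2.05 for P2RY12, 0.67 to 1.38 for P2RY13 and 0.649 to 1.24 for GPR34.

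Among the microglial regions, the frontal cortex libraries were the most spread. P2RY12 stood at 795, 843, 929 and 983 CPM in pigs 12720, 12902, 12847 and 12707 and at 201, 427, 473 and 575 CPM in pigs 12599, 12750, 12891 and 12758. GPR34 left a gap at the same place, with 548, 523, 535 and 617 CPM in the first 4 pigs and 239, 296, 288 and 314 CPM in the others. P2RY13 left none, with 87.9, 60.2, 105 and 106 CPM in the first 4 and 60.3, 90.4, 52.3 and 71.1 CPM in the others. By scaled library size the first 4 were mostly the deeper libraries, and the part of depth in the gap was not tested. The coefficient of variation in frontal cortex microglia was 42.3% for P2RY12, 35.5% for GPR34 and 26.4% for P2RY13, against 13.9%, 10.3% and 18% in cerebellar microglia. Of the first 4 pigs, 12847 and 12902 also gave cerebellar microglia, with P2RY12 at 451 and 441 CPM, the 2 highest of the 8 cerebellar libraries. Pig 12750 of the others was close to them, at 436 CPM. Cerebellar GPR34 stood at 349 and 339 CPM in pigs 12847 and 12902, below 359 CPM in pig 12583.

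Oligodendrocyte markers (5 genes) summed to 1870.2 and 1234 CPM in the frontal cortex libraries of pigs 12599 and 12891, and to 177 to 365 CPM in the other 6. Neuron markers (8 genes) summed to 198 and 129.6 CPM in these 2 libraries and to 10.8 to 28.3 CPM in the others. Whole tissue stood at 11909.9 to 23367 and 2965 to 3656 CPM. Cerebellar libraries carried such markers too, with oligodendrocyte sums of 809, 766 and 498 CPM in pigs 12583, 12599 and 12902 and neuron sums of 128 and 184 CPM in pigs 12583 and 12902, and these were kept. Without the 2 frontal cortex libraries the F test gave an adjusted p of 0.00628 for P2RY12, 0.0116 for GPR34 and 0.103 for P2RY13, and P2RY12 differed between cerebellum and frontal cortex by -0.95 (adjusted p = 0.00301), which is past the threshold. Without the library of pig 12599 alone, that difference was -0.87 (adjusted p = 0.00758). With pig as a block the difference was smaller, at -0.49 in edgeR and -0.56 in limma (adjusted p = 0.369 and 0.0718). The regional difference of P2RY12 therefore depended on which frontal cortex libraries were used.

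Ratios between receptors within a library do not depend on the scaling between libraries. The median library held 6.96 counts of P2RY12 for each count of P2RY13 in microglia (range 3.34 to 14), 2.09 in tissue (1.28 to 3.18) and 0.215 in alveolar macrophages (0.181 to 0.37). The 3 ranges did not overlap. The log2 ratio differed by 4.78 between microglia and alveolar macrophages (27.5-fold; two-sided exact permutation p = 0.000684, the smallest these 24 and 3 libraries allow, adjusted p = 0.00466 over 18 tests). The 24 microglial libraries came from 14 pigs, 2 of which also gave alveolar macrophages, and the permutation took libraries as independent. Between hippocampal microglia and tissue it differed by 1.64 (3.12-fold; exact p = 0.00404, adjusted p = 0.0121). Differences within pigs were 4.75 in 2 pigs and 1.75 in 4 pigs, where an exact sign-flip test cannot go below p = 0.5 and p = 0.125.

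The ratio of P2RY12 to GPR34 showed a like contrast with alveolar macrophages and a smaller one with tissue. It was 0.843 to 2.03 in microglia, 0.0273 to 0.108 in alveolar macrophages and 0.854 to 1.36 in tissue. On the log2 scale microglia and alveolar macrophages differed by 4.73 (26.5-fold; exact p = 0.000684, adjusted p = 0.00466), and hippocampal microglia and tissue by 0.63 (1.55-fold; exact p = 0.00404, adjusted p = 0.0121). It also differed between regions, by -0.41 for cerebellar against hippocampal microglia (1.24 against 1.64 as geometric means; exact p = 0.000777, adjusted p = 0.00466). Within pigs these differences were 4.89 (2 pigs, exact p = 0.5), 0.74 (4 pigs, exact p = 0.125) and -0.35 (4 pigs, exact p = 0.25).

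GPR34 and P2RY13 kept a more even ratio. Microglia held 3.06 to 8.68 counts of GPR34 for each of P2RY13 and alveolar macrophages 3.44, 3.92 and 6.63, a difference of 0.05 on the log2 scale (exact p = 0.842). Tissue was lower, at 1.5 to 2.34, and differed from hippocampal microglia by 1.01 (2.02-fold; exact p = 0.00404, adjusted p = 0.0121), with 1.01 also within the 4 shared pigs (exact p = 0.125). Cerebellar exceeded hippocampal microglia by 0.34 (exact p = 0.0134, adjusted p = 0.0344), and within 4 pigs by 0.46 (exact p = 0.125). This call was lost without any 1 of 8 libraries, with values of 0.29 to 0.34 and adjusted p of 0.0519 to 0.0687 (permutation; cerebellar 12583, 12758, 12891 and 12902, hippocampal 12750, 12758, 12781 and 12847). The 3 comparisons of alveolar macrophages with tissue, with differences of -3.08, -4.28 and 1.20 for P2RY12 to P2RY13, P2RY12 to GPR34 and GPR34 to P2RY13, all had the smallest exact p that 3 and 4 libraries allow (0.0571, adjusted p = 0.0935). The remaining regional ratio tests did not pass. Among them GPR34 to P2RY13 was higher by 0.40 in frontal cortex than in hippocampal microglia (exact p = 0.0348, adjusted p = 0.0783), and passed without 1 of 3 libraries (frontal cortex 12599 and 12750, hippocampal 12817; 0.45 to 0.50). Without the frontal cortex library of pig 12599, the difference of cerebellar from frontal cortex microglia was -0.50 for P2RY12 to P2RY13 and -0.38 for P2RY12 to GPR34, past the threshold (adjusted permutation p = 0.0379 and 0.00559), where all libraries gave -0.33 and -0.27.

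**Figure D3:**
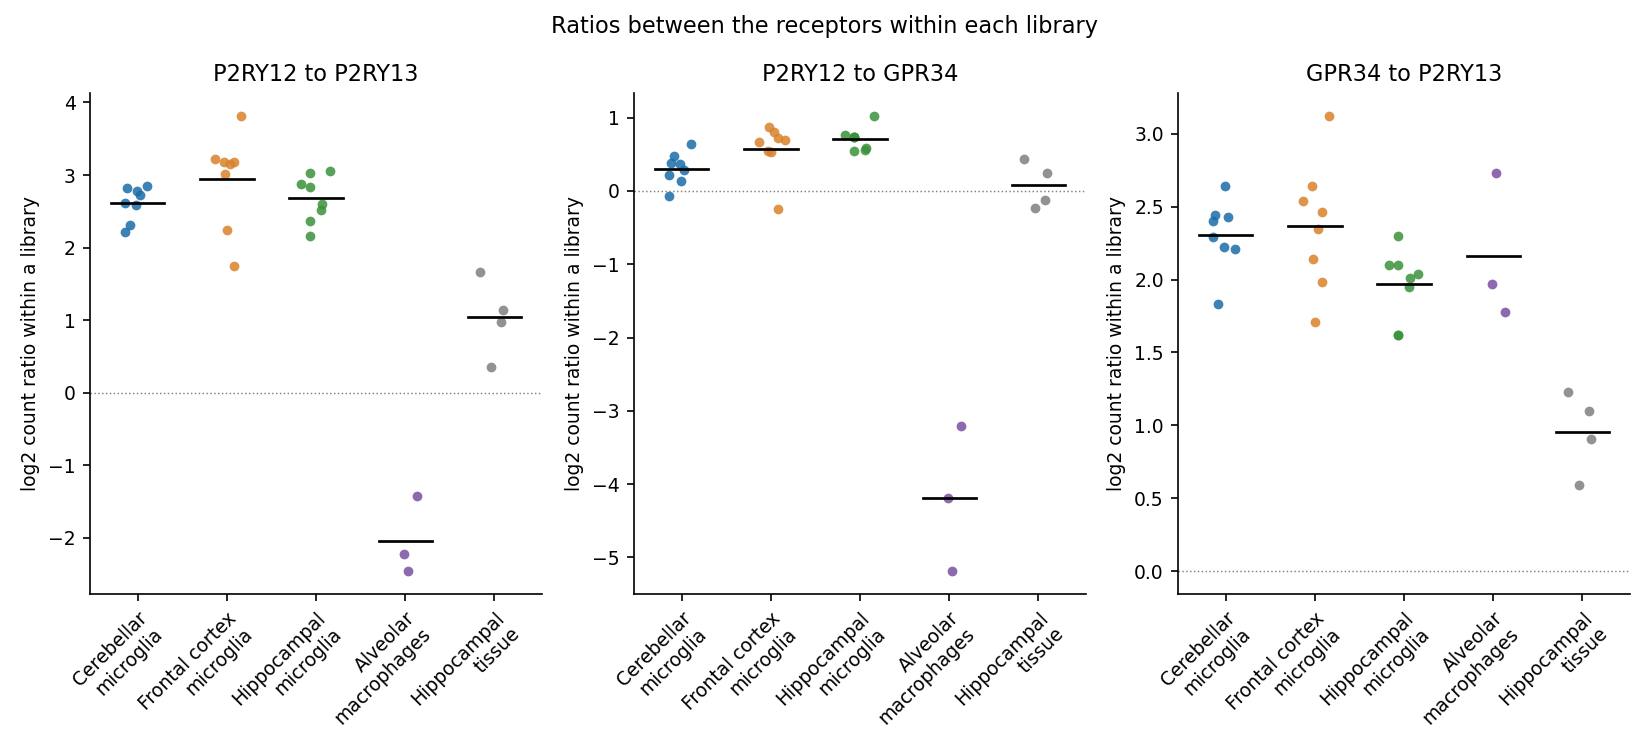
Log2 ratios of read counts between pairs of receptors within each of the 31 libraries, by group; lines are group means and the dotted line is an equal count. Alveolar macrophages fall to means of -2.04 and -4.20 for the ratios of P2RY12 and lie among the microglia for GPR34 to P2RY13.

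Across the 14 pigs with microglia, after removing each region's mean log2 CPM, P2RY12 and GPR34 were correlated at Pearson's r = 0.94 and Spearman's rho = 0.95 (permutation p = 1e-05 for both, the smallest 100000 resamples can give, adjusted p = 3e-05 over 3 pairs). Without the 2 pigs farthest from the median of P2RY12, r was 0.90 (permutation p = 8e-05). Over the 12 pigs with cerebellar or hippocampal microglia, the frontal cortex left out, it was 0.79 (permutation test, adjusted p = 0.00711). Within regions r was 0.92 in the frontal cortex, 0.87 in the hippocampus and 0.31 in the cerebellum over 8 libraries each (rho = 0.90, 0.69 and 0.43, permutation p of r adjusted over 9 tests = 0.00261, 0.0354 and 0.418). The correlation was not detected within the cerebellum, where both genes varied least, and 8 libraries cannot show that it was absent. The 8 frontal cortex libraries lay on both sides of the gap described above, with 4 on each, too few for a value within each. P2RY13 was less closely tied, with r = 0.56 and rho = 0.50 to P2RY12 (permutation p adjusted = 0.0366 and 0.0698) and r = 0.65 and rho = 0.55 to GPR34 (permutation p adjusted = 0.0168 and 0.0686). Without the 2 pigs farthest from the median of P2RY12, r of P2RY13 to P2RY12 was 0.59 (permutation p = 0.045). Without the 2 pigs farthest from the median of P2RY13, r of P2RY13 to GPR34 was 0.44 (permutation p = 0.148). The relation of P2RY13 to GPR34 was thus weaker without the pigs most extreme in P2RY13. Within single regions, none of the 6 tests of P2RY13 passed after adjustment (adjusted p 0.284 to 0.418, with permutation).

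**Figure D4:**
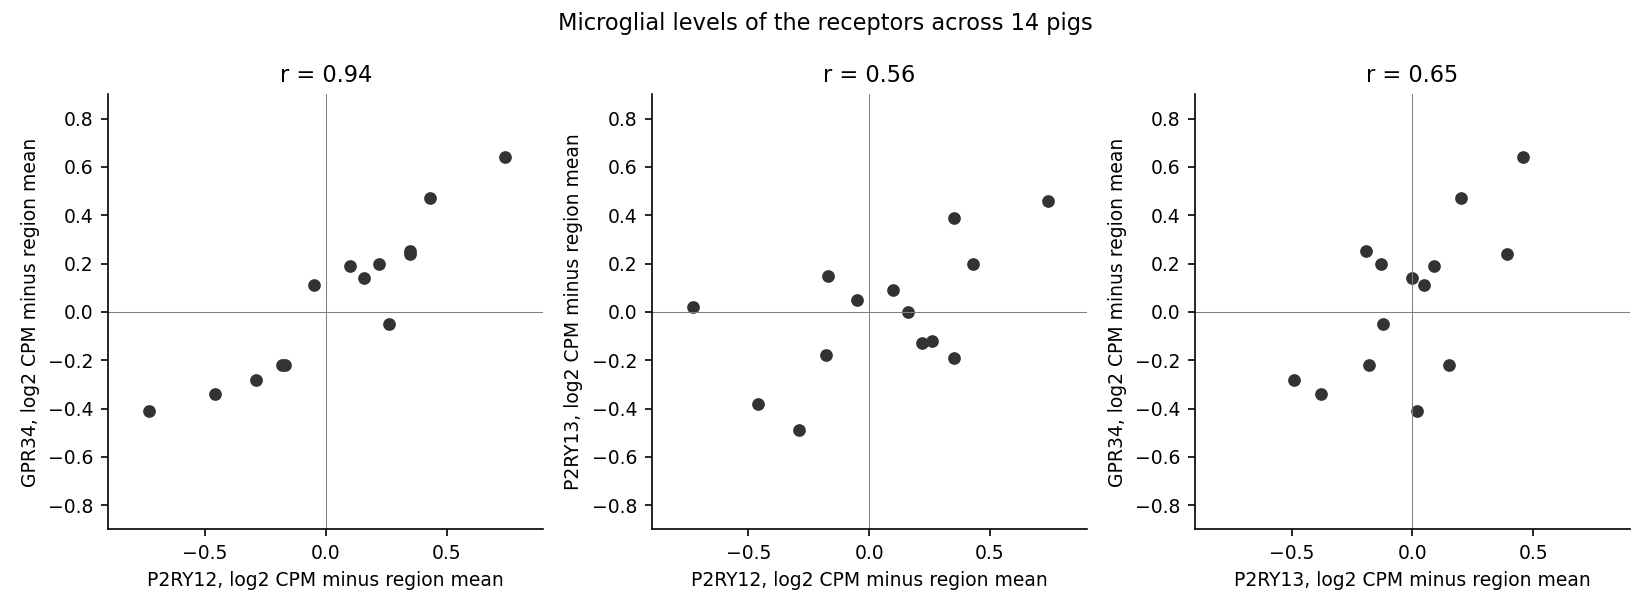
Microglial level of each pair of receptors across 14 pigs, as log2 CPM minus the mean of the region, averaged per pig. The points for P2RY12 and GPR34 lie along a line (r = 0.94), those with P2RY13 are more scattered (r = 0.56 and 0.65).

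The genes with a profile most like each receptor's were sought among 10209 tested genes with a symbol, by the root mean square difference of centred mean log2 CPM over the 5 groups. For P2RY12 they were GNAS (difference 0.20), the stimulatory G protein alpha subunit, then the UDP receptor P2RY6 (0.34), the ubiquitin ligase RNF128 (0.35), the adenosine A3 receptor ADORA3 (0.37) and DNAJC5B (0.37). For P2RY13 they were FRMD4B (0.11), TIE1 (0.16), the receptor kinase AXL (0.19), the transcription factor BHLHE41 (0.19) and the phospholipase PLA2G4A (0.19). For GPR34 they were IRAK2 (0.12), the inflammasome adaptor PYCARD (0.16), TGFBI (0.17), AIF1 (0.17), which encodes the microglial stain IBA1, and IL13RA1 (0.18). By the correlation over the 14 pigs, P2RY12 and GPR34 each had the other as the closest gene (r = 0.94). Next came ZFP91 (0.93), TLR1 (0.91), WASHC4 (0.91) and MAK16 (0.91) for P2RY12, and ALG8 (0.92), the lysosomal protease CTSS (0.91), TSPAN31 (0.90) and CFAP298 (0.89) for GPR34. For P2RY13 they were the chaperone HSPA5 (0.83), EPS15 (0.83), KPNB1 (0.81), MARCKS (0.81) and COPA (0.81). These are descriptions, and points of 1 pig share libraries and depth.

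The P2Y12-like relatives P2RY14, GPR171 and GPR82 went in different directions against alveolar macrophages. P2RY14, the UDP-glucose receptor, was higher in microglia by 1.59 ± 0.40 on the log2 scale (31.6 ± 12.9 against 10.4 ± 3.75 CPM; adjusted p = 0.00132), a 3.01-fold difference at the fold threshold. Its call was lost without the alveolar macrophages of pig 12829 (1.35) and without any 1 of 11 microglial libraries (1.53 to 1.58, namely cerebellar 12599, 12847, 12891 and 12902, frontal cortex 12720, 12891 and 12902, hippocampal 12750, 12817, 12821 and 12847). It was also lost in 7 of 10 other fits (1.38 to 1.54). GPR171, next to P2RY14 in MED12L, was lower in microglia at 2.98 ± 3.03 against 53.7 ± 4.57 CPM (log2 fold change -4.27 ± 1.13, adjusted p = 0.00193). GPR82, the neighbour of GPR34, was lower in microglia at 4.25 ± 2.02 against 25.8 ± 5.18 CPM (-2.62 ± 0.39, adjusted p = 1.09e-06). GPR171 and GPR82 passed the filter of 10 CPM throughout a group only through the alveolar macrophages, and P2RY14 only through microglia. These directions are therefore not independent of the filter. With pig as a block in edgeR the calls of GPR171 (-7.88, adjusted p = 0.0485) and GPR82 (-2.22, adjusted p = 0.017) were lost, and with DESeq2 that of GPR171 (-4.32). The part of lymphocyte RNA in these differences was not tested. Against tissue, none of P2RY14 (1.77 ± 0.38), GPR82 (0.83 ± 0.50) and GPR171 (-0.06 ± 1.52) passed the fold threshold.

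The host genes differed less. MED12L stood at 144 CPM in microglia, 98.2 in alveolar macrophages and 83.5 in tissue, with log2 fold changes of 0.55 ± 0.24 against alveolar macrophages (adjusted p = 0.053) and 0.87 ± 0.24 against tissue (adjusted p = 0.00187), under the fold thresholds. CASK, a scaffold kinase of synapses, stood at 21.5, 12.6 and 61.4 CPM, higher by 0.77 ± 0.19 than in alveolar macrophages (adjusted p = 0.00121) and lower in hippocampal microglia than in tissue (log2 fold change -1.46 ± 0.17, adjusted p = 1.89e-08), the opposite direction to GPR34 inside it. Neither host passed the fold threshold in these comparisons.

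Of 18 other P2Y, P2X and adenosine receptors, 17 were in the table and 10 passed the filter. Grouped by name, they include P2RY8 and P2RY10, so the counts are not of nucleotide and adenosine receptors alone. Against alveolar macrophages 2 were called higher in microglia and 3 lower (12.2% and 10.1% over all tested genes), with a median log2 fold change of 0.08 beside 0.06 over all tested genes. The higher were ADORA3 (310 against 1.11 CPM, log2 fold change 8.11 ± 0.29, adjusted p = 2.83e-19) and P2RY6 (111 against 0.582 CPM, 7.54 ± 0.43, adjusted p = 6.2e-15), which drives microglial phagocytosis. The lower were P2RY10 (0.128 against 32.5 CPM, a lysophosphatidylserine receptor of lymphocytes), P2RY8 (4.23 against 56.7 CPM, a B cell receptor) and the ion channel P2RX5 (19.3 against 58.7 CPM). P2RX5 (log2 fold change -1.61) was at the fold threshold and lost its call without the alveolar macrophages of pig 12821 (-1.51), without 1 of 5 microglial libraries (-1.58 to -1.56; cerebellar 12821, frontal cortex 12707, 12847 and 12902, hippocampal 12758) and in 2 other fits (-1.57 and -1.52). With pig as a block in edgeR P2RY10 was no longer called (-8.62). Against tissue 4 were called higher in hippocampal microglia, namely ADORA3 (5.64), P2RY6 (5.45), P2RY11 (5.24) and P2RY8 (3.16), and 1 lower, ADORA1, the neuronal adenosine A1 receptor (0.877 against 74.7 CPM). Over all genes 11.7% were called higher and 22.1% lower, and the median was 0.27 beside -0.08. P2RY8 and P2RY10 passed the filter only through the alveolar macrophages, ADORA3 and P2RY6 only through microglia, and ADORA1 only through tissue. Calls between such a group and another are not independent of the filter. P2RX4 and P2RX7, the ATP-gated channels of microglia, differed from alveolar macrophages by 0.28 ± 0.26 and -0.11 ± 0.38 and did not pass. P2RY1, the other main ADP receptor, was not analysed here.

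**Figure D5:**
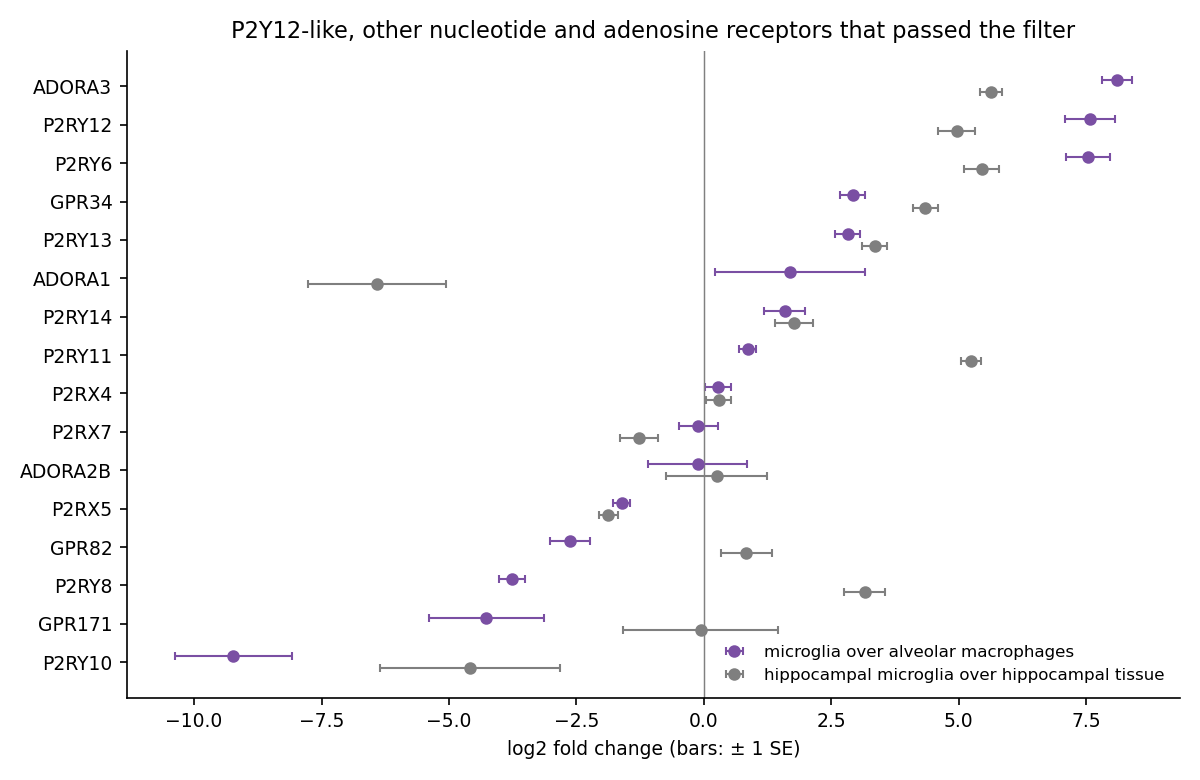
Log2 fold changes (± 1 SE, derived from the F statistic) for microglia over alveolar macrophages and for hippocampal microglia over hippocampal tissue. Shown are the 16 P2Y12-like, other P2Y, P2X and adenosine receptors that passed the filter. ADORA3, P2RY12 and P2RY6 lie farthest to the right in the first comparison, at 8.11, 7.58 and 7.54, and P2RY10 farthest to the left.

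Of 14 genes for extracellular nucleotides and their transport, 8 passed the filter, with median log2 fold changes of 1.15 against alveolar macrophages and -0.55 against tissue, beside 0.06 and -0.08 over all genes. Against alveolar macrophages 3 were called higher and 2 lower (12.2% and 10.1% over all genes). Higher in microglia were the equilibrative transporter SLC29A3 (390.1 against 8.27 CPM, log2 fold change 5.55 ± 0.33), the adenosine deaminase ADA2 (379 against 34.1 CPM, 3.47 ± 0.18) and ENTPD1, the CD39 ectonucleotidase that breaks down ATP and ADP (219 against 67.6 CPM, 1.69 ± 0.11, adjusted p = 1.79e-13). Lower were ENPP1, which cleaves ATP to AMP (3.03 against 123 CPM), and the ATP release channel PANX1 (1.02 against 13.2 CPM). The call of PANX1 was lost with pig as a block in edgeR (-2.95) and that of ENTPD1 under looser filters on low counts (1.56). Against tissue all 8 were called (11.7% higher and 22.1% lower over all genes), 4 higher (ADA2, SLC29A3, ENTPD1 and SLC29A1, by 5.50, 4.63, 3.68 and 2.27) and 4 lower (ALPL, ENPP2, PANX1 and ENPP1, at 0.0334, 6.37, 0.921 and 0.542 CPM in hippocampal microglia against 15.4, 314, 29.4 and 5.58 CPM in tissue). The filter kept genes over 10 CPM throughout at least 1 group. ALPL, PANX1 and ENPP1 had means under 10 CPM in all microglial groups and passed only through tissue or alveolar macrophages. Their calls against a group that admitted them are not independent of the filter. The call of ENPP1 against tissue (log2 fold change -3.37) was lost with pig as a block in edgeR (-3.80, adjusted p = 0.0156). NT5E, which makes adenosine from AMP, was below the filter at 0.757 CPM in microglia and 12.8 CPM in tissue. ENPP1 was the 1 gene of this list called by the F test of regions (adjusted p = 0.00239, where 2.03% of all genes were called), a call lost with limma-voom (0.0389), with pig as a block in edgeR and limma (0.0949 and 0.0391) and without the cerebellar library of pig 12821 (0.0119).

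Of 36 Gi signalling genes, 33 were tested, and 6 were called higher and 7 lower in microglia than in alveolar macrophages (12.2% and 10.1% over all genes), with a median of 0.01 beside 0.06 over all genes. The higher included KCNK13, the THIK-1 potassium channel of microglia (25.5 against 0.208 CPM, log2 fold change 6.87 ± 0.50, edgeR adjusted p = 1.04e-12). Others were the arrestin ARRB1 (1897 against 50.3 CPM, 5.24 ± 0.20), GNAI1 (9.24 against 0.692 CPM, 3.71 ± 0.41) and RGS10 (746 against 74.9 CPM, 3.31 ± 0.22). GNAI2, another Gi alpha subunit, stood at 653 and 601 CPM and differed by 0.12 ± 0.12 (adjusted p = 0.414). The lower included RGS14 (1.16 against 85.7 CPM), RASGRP2 (0.956 against 42.8 CPM), which activates RAP1 in platelets, RGS16 (0.624 against 18.8 CPM) and the receptor kinase GRK6 (38.9 against 245 CPM). With pig as a block in edgeR, RASGRP2 (-5.32) and RGS16 (-4.70) were no longer called, and 4 of the list were lower in place of 7. Against tissue 17 were higher and 4 lower (11.7% and 22.1% over all genes), with a median of 2.10 beside -0.08, led by RGS1 (6.13), RGS10 (5.53), PIK3CG (4.98) and ADCY7 (4.80) upward and by RGS14 (-6.46), RASGRP2 (-4.51), GNAI1 (-3.55) and ADCY3 (-3.30) downward. RASGRP2 lost this call too with pig as a block in edgeR (-4.38, adjusted p = 0.0114). RGS14, RASGRP2, RGS16 and ADCY3 passed the filter only through groups other than microglia, and KCNK13 only through microglia. Their calls against a group that admitted them are not independent of the filter. RAP1B was the 1 member called by the F test of regions (adjusted p = 0.00644), which rose past the threshold of 0.01 without 1 of 5 libraries (0.0101 to 0.0137; cerebellar 12599, 12750, 12758 and 12891, frontal cortex 12891) and in 3 other fits (0.0103 to 0.0107).

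For the ligand of GPR34, 4 of 6 genes of lysophosphatidylserine metabolism passed the filter, with medians of 0.33 against alveolar macrophages and 0.57 against tissue. ABHD12, a lipase that degrades lysophosphatidylserine, was higher in microglia than in alveolar macrophages (248 against 32 CPM, log2 fold change 2.95 ± 0.16, adjusted p = 3.73e-15) and, at 1.58, under the fold threshold against tissue. ABHD16A, PTDSS1 and PTDSS2 were not called in either comparison, and PLA1A, which releases the ligand from phosphatidylserine, was below the filter at 4.45 CPM in microglia, 1.09 in alveolar macrophages and 5.1 in tissue.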

How the data were processed

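Total RNA sequencing (Takara SMARTer stranded, paired-end) was available for 31 libraries. The deposited values are raw counts per gene, which the authors made by trimming with BBtools, aligning with HISAT2 to Sscrofa11.1 and counting with StringTie on the Ensembl annotation. The versions of HISAT2 and StringTie and the strand setting are not given in the sources used here. Symbols came from the reference table for 15029 genes and from the supplementary tables for a further 510, and P2RY13 was found only through the latter.

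Genes that exceeded 10 CPM throughout 1 or more groups (11633 of 31907) were fitted in 1 model of all 5 groups with edgeR 4.0.16 (TMM, robust quasi-likelihood test, Benjamini-Hochberg adjustment) in R 4.3.3. A gene could thus pass through 1 group alone, as P2RY13 passed only through microglia. Calls of such a gene that involve the group which admitted it are not independent of the filter. Calls needed an adjusted p under 0.01, with a fold change over 3 for microglia against alveolar macrophages and over 4 for comparisons with tissue. limma-voom (limma 3.58.1), the method of the study, and DESeq2 1.42.0 were alternatives, beside other scalings, filters and sample sets, pig as a block, and leaving out each library. Of the fits, edgeR without a block was tested on simulated counts, for microglia against alveolar macrophages and for cerebellar against frontal cortex microglia. Receptor ratios were log2 of counts plus 2, with two-sided exact permutation tests adjusted over 18 comparisons, called under 0.05. Correlations used 100000 resamples in scipy 1.17.1.

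Libraries of 1 pig came from the same animal. The fits reported first and the permutation tests took libraries as independent, and pig entered as a block only as an alternative. The mean correlation of their deviations from group means was 0.0791 over 25 pairs, against -0.00499 over 347 pairs of different pigs. The within-pig correlation that limma estimated for its block fit was larger, at 0.205. Replicates differed by a chi-square of at least 18.9 per degree of freedom, so none was a repeated library. Intervals and floors from counts cover counting error only.

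The receptors and gene lists were chosen with earlier results of these data known. Named genes were the receptors, up to 4 called members of each list per direction with the largest fold change, and the 5 most alike genes by each measure. MED12L, CASK, P2RX4, P2RX7, GNAI2, NT5E, PLA1A, ABHD16A, PTDSS1 and PTDSS2 were named outside this rule, after their values were seen.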

Additional observations from a re-analysis of the deposited data

Results flagged for a closer look

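Among 24 sets of 8 or 4 libraries searched for a sample standing far from the others of its group, 2 held one, both for the log2 ratio of P2RY12 to GPR34. Chance flags about 5% of such sets. In frontal cortex microglia, pig 12599 had a log2 ratio of -0.25, where the other 7 libraries had 0.53 to 0.87. This library also had the highest summed oligodendrocyte markers of its group (1870.2 CPM), whose part in the ratio was not tested. In hippocampal microglia, pig 12829 had 1.02, where the others had 0.55 to 0.77.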

How the results depend on the processing

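In microglia against alveolar macrophages and hippocampal microglia against tissue, all 3 receptors kept their direction and call under 10 alternatives and without any 1 library. P2RY12 in alveolar macrophages against tissue was -2.78 with limma-voom and -2.90 with pig as a block in limma, neither called. P2RY12 between cerebellum and frontal cortex ran from -0.87 to -0.65 without 1 library and was -0.95 without the 2 oligodendrocyte-rich frontal cortex libraries, a choice made after seeing the data, which also gave an F test adjusted p of 0.00628. P2RY13 between frontal cortex and hippocampus (-0.11) was 0.00 on library size alone, 0.02 without those 2 libraries and -0.16 to 0.03 without 1. In the 5 pathway lists, 14 genes were lower in microglia than in alveolar macrophages and 7 with pig as a block in edgeR. The F test of regions called 2, and 1 on library size alone, with limma-voom, without a filter and with pig as a block in edgeR, 5 with DESeq2, 0 with the microglia alone and 1 to 3 without 1 library. With pig as a block, differences within pigs for P2RY12 to P2RY13 were 4.75, 1.75 and 0.11 (microglia against alveolar macrophages, against tissue, and cerebellum against hippocampus), for P2RY12 to GPR34 4.89, 0.74 and -0.35, with 0.12 between frontal cortex and hippocampus, and for GPR34 to P2RY13 -0.14, 1.01 and 0.46. Without 1 library, P2RY12 to P2RY13 between cerebellum and frontal cortex ran from -0.50 to -0.20 and P2RY12 to GPR34 from -0.38 to -0.21, and GPR34 to P2RY13 from -0.16 to 0.04 there, from -0.14 to 0.34 against alveolar macrophages, from 0.29 to 0.41 between cerebellum and hippocampus and from 0.29 to 0.50 between frontal cortex and hippocampus. The correlations of P2RY13 over cerebellar and hippocampal pigs were 0.61 with P2RY12 and 0.46 with GPR34. Over all regions, that with P2RY12 was 0.59 without the 2 pigs farthest in P2RY12. That with GPR34 was 0.44 without the 2 pigs farthest in P2RY13. Each of these 4 had an adjusted p over the threshold. Over all genes the F test called 236 with edgeR, 790 with DESeq2, 141 with the microglia alone and 85 with pig as a block in edgeR, and the cerebellum against frontal cortex test 217, 511 with DESeq2, 104 with the groups compared alone, 129 without a filter and 381 with pig as a block in limma. The median of all genes for hippocampal microglia against tissue was -0.08, -0.30 with relative log expression scaling, 0.15 on library size, -0.27 and -0.82 with looser or no filter, and 0.14 in place of 0.06 on library size for microglia against alveolar macrophages. The block changed no other call on the level of the 3 receptors. The cause of these changes was not tested. With 3 and 4 libraries, no ratio between alveolar macrophages and tissue could pass.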
